A study of Drosophila melanogaster with 2 samples.

Results

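Chromatin immunoprecipitation with sequencing of the fly transcription factor disco-r gave 568 reproducible peaks whose summit lay just upstream of a promoter that stands alone. They make up 24.3% (95% Wilson interval 22.6 to 26.1) of 2334 reproducible peaks and 46.8% (44.0 to 49.6) of the 1215 of them that lay at most 500 bp from the transcription start site (TSS) of a protein-coding gene. A peak was taken when its summit, the base of highest signal, lay at most 500 bp upstream of the nearest protein-coding TSS. It was left out when it lay between a leftward and a rightward TSS at most 1000 bp apart, which is called a divergent promoter here. The peaks were thus chosen by their signal, through the reproducibility cut-off, and by position, so their number, signal and range of distances describe the choice and were not tested.

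The study holds 1 group of 2 biological replicates, numbered 2 and 3. Both are pools of male and female whole embryos, 0 to 24 h old, of 1 transgenic line that carries disco-r joined at its C-terminal end to eGFP, and the tagged protein was pulled down with an antibody against GFP. The chromatin was sonicated to 200 to 800 bp. One label names disco in place of disco-r as the tagged gene, and the labels do not say which regulatory sequence drives the fusion. No control library, untagged line or other stage was analysed here, and read depth is unknown. Reproducible peaks are those that passed the authors' cut-off on the irreproducible discovery rate (IDR), which measures how alike the replicates rank regions.

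Disco-r and its neighbour and paralog disco encode zinc-finger proteins that act in the development of the embryonic head and of the ventral appendages. Fly promoters fall into broad kinds by the short sequences around their start. The DRE, bound by the factor DREF, and Ohler motifs 1, 6 and 7 are typical of genes that most cells use. The Initiator, which spans the start, the downstream promoter element (DPE), bound by subunits of TFIID, and repeats bound by the GAGA factor are typical of promoters of developmental genes.

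Start sites with a close summit more often held a DRE, and start sites with a distant summit more often held an Initiator, a DPE or a GAGA repeat. Examples of both kinds are printed here from the Release 6 genome, from 120 bases before the TSS to the first 40 transcribed bases, on the strand of the gene and 5′ to 3′. The first pair has its summit 32 and 31 bp upstream of the TSS, and the capitals mark the DRE. eEF1gamma, a subunit of translation elongation factor 1, lies at chr3R:29220052-29220211 on the plus strand. RpS10b, a protein of the small ribosomal subunit, lies at chrX:19597911-19598070 on the plus strand.
eEF1gamma: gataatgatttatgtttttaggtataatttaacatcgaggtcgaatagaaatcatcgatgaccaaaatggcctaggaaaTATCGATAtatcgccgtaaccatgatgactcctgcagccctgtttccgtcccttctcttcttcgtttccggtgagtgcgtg
RpS10b: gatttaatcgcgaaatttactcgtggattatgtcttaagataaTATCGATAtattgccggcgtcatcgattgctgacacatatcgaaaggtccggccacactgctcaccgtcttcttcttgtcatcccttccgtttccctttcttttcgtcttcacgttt

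The next 3 have their summit 345, 450 and 358 bp upstream. The capitals mark matches to the Initiator near the start and to the DPE after it, and in CHES-1-like also 2 overlapping GAGA repeats before it. Each element was searched at its own distance from the TSS, and no spacing between Initiator and DPE was required. In CG32137 the Initiator match begins at transcribed base 2, so it does not span the annotated start. Acsf2 lies at chr2L:5342195-5342354 on the minus strand, CG32137 at chr3L:13939130-13939289 on the plus strand, and CHES-1-like, a gene of the forkhead family, at chrX:7696665-7696824 on the minus strand.
Acsf2: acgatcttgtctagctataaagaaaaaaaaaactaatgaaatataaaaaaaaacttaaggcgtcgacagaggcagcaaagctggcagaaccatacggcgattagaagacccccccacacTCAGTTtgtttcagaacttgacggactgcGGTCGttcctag
CG32137: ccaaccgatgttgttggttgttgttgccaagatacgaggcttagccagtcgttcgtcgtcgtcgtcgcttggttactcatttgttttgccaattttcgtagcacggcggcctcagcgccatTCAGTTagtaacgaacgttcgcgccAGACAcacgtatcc
CHES-1-like: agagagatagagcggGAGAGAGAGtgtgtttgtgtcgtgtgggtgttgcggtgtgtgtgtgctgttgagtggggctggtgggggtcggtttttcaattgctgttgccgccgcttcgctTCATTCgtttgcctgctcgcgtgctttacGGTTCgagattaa

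Neither kind of sequence was found at every strong peak. CG14100, which had the strongest peak of all, lies at chr3L:19590485-19590644 on the minus strand. The tagged gene disco-r lies at chrX:16148938-16149097 on the minus strand. None of the elements searched was found in the 160 bases shown for either gene, which says only that these letters are not in this stretch.
CG14100: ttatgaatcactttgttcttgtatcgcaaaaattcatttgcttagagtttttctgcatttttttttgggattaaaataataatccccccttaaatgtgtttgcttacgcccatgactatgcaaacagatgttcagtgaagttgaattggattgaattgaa
disco-r: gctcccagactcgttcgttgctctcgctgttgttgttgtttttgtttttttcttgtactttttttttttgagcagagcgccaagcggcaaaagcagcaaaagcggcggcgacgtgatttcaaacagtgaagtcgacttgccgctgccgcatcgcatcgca

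The 568 peaks belonged to 528 genes, by the nearest TSS. Nearness does not show that disco-r regulates the gene. Of all 29347 candidate regions called on the pooled replicates, 7.95% passed the IDR cut-off. Among the 3160 candidates upstream of single promoters, 18.0% passed, and of the 2556 protein-coding genes with such a candidate, 20.7% had a passing one. These shares are the background for the counts that follow. The comparison set used throughout is the 2498 upstream candidates that did not pass and did not overlap a passing peak.

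Pooled signal, the peak caller's value with no stated scale, ran from 72.7 to 1206 with a median of 117 (quartiles 89.2 and 171). The median was 107 at divergent promoters, 92.2 for peaks just downstream of a TSS and 100.5 for peaks outside promoters. Of the 568 peaks, 341 (60.0%) lay above the median of all reproducible peaks, 37 were among the strongest 100 and 6 among the strongest 20. Signal chose the peaks, so these figures are a description.

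The strongest of the 2334 peaks lay 99 bp upstream of CG14100, a gene with no name beyond its number, with a pooled signal of 1206, 552 in replicate 2 and 657 in replicate 3. The next gene upstream of it, in the same direction, is ash1, which encodes a Trithorax-group histone methyltransferase. The next strongest of the 568 lay 188 bp upstream of an internal start of px (plexus), a wing vein patterning gene, with 430 in replicate 2 and 461 in replicate 3. After it came one 227 bp upstream of an internal start of CG1888, with 368 and 391. Among all 2334 peaks these 3 ranked 1, 3 and 10 by pooled signal, and they ranked 2, 3 and 10 among the candidates of replicate 2 and 1, 4 and 12 among those of replicate 3.

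It was followed by the peak at ph-p, which encodes a subunit of the Polycomb repressive complex PRC1, at 298 in replicate 2 and 459 in replicate 3. Its summit stood 483 bp upstream of an internal start, close to the edge of the window. Then came CG31145 (331 and 318), by gish, a casein kinase I gene (301.5 and 293), and by larp, which encodes an RNA-binding protein of the La-related family (264 and 304). The last of these lay at an internal start, as did gish. Of the other 13 among the strongest 20, those at genes of known function included eIF6, a factor in the making of the large ribosomal subunit, Rtnl1, a reticulon of the endoplasmic reticulum, Atf3, a bZIP transcription factor, and Sox14, a Sox-family transcription factor. Their pooled signals were 509, 498, 492 and 413. Sesn, the fly sestrin, had 404, Alg3, a mannosyltransferase of protein glycosylation, had 401, and Hpf1, whose mammalian counterpart is a partner of PARP enzymes, had 394.

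**Figure D1:**
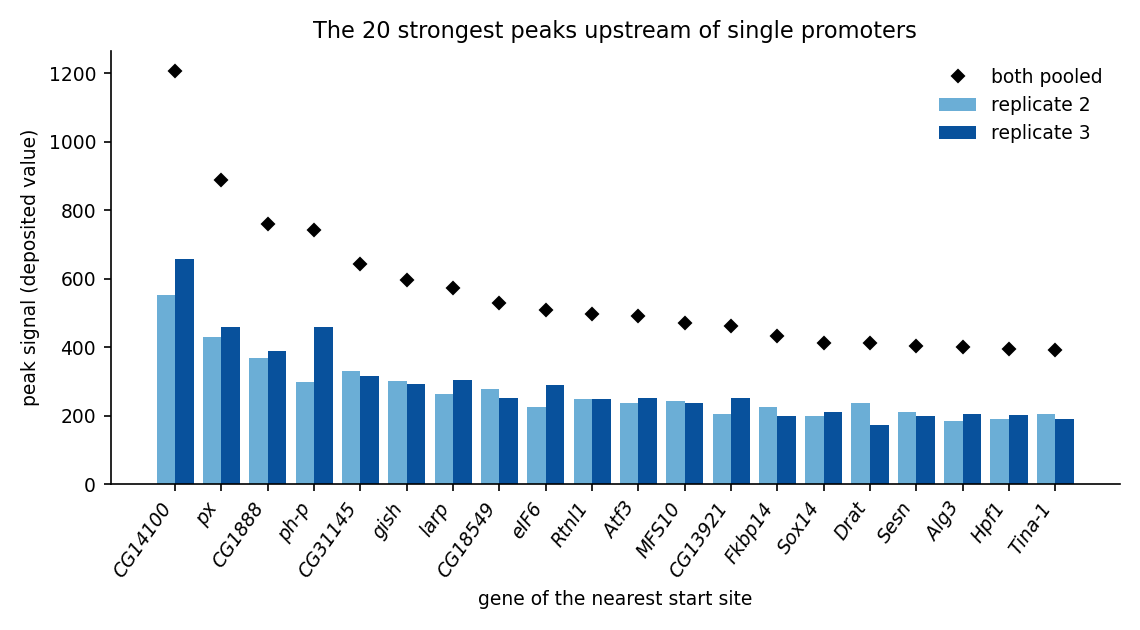
Deposited peak signal (vertical axis) of the 20 strongest peaks upstream of single promoters, with bars for replicates 2 and 3 and diamonds for both pooled, ordered by pooled signal. Each gene has a tall bar in both replicates, and the CG14100 peak stands highest at 552 and 657.

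Replicate 2 gave these peaks signals from 15.9 to 552 (median 62.4) and replicate 3 from 12.1 to 657 (median 55.4). Of the 568 peaks, 564 were covered over at least 50% of their length by a candidate in each replicate. Of those, 472 (83.7%) ranked within the strongest 2334 candidates of replicate 2 and 492 (87.2%) within those of replicate 3. Across the 564 peaks, which share both libraries, Spearman's rho of the replicate signals was 0.673 and Pearson's r of the log2 signals 0.74. The replicate lists have no stated common scale, so ratios between them are read against their median. Over peaks, the log2 of replicate 3 signal over replicate 2 signal was centred at a median of −0.07, with an SD of 0.56.

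The replicates put the summits at nearly the same place. The summits of a peak in the replicates were a median of 28 bp apart (upper quartile 51 bp, upper decile 85 bp), and 421 (74.7%) were at most 50 bp apart. By its own summit, replicate 2 placed 537 of the 564 (95.2%) upstream of a single promoter and replicate 3 placed 546 (96.8%), and 525 were placed there by both. For the 190 peaks just downstream of a TSS, 145 of 187 kept their position class in both replicates and rho was 0.389. At divergent promoters 440 of 455 kept it, with a rho of 0.650, and outside promoters 1095 of 1113 kept it, with a rho of 0.577. Both of these classes thus kept their position more often than the peaks described here. Over only the 537 and 546 peaks still placed upstream, the median distance to the TSS was 189 bp by replicate 2 summits and 189.5 bp by replicate 3 summits.

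**Figure D2:**
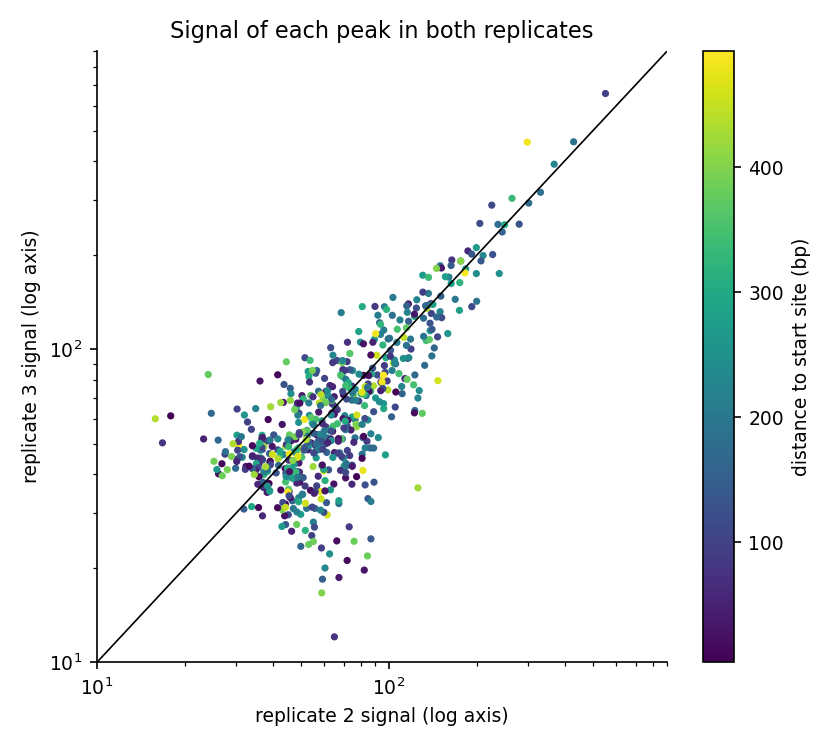
Signal of the 564 peaks found in both replicates, replicate 2 on the horizontal and replicate 3 on the vertical log axis, coloured by distance to the TSS in bp, with the line of equal deposited values; the lists have no stated common scale. Strong peaks lie close to the line and weak ones scatter around it, with an SD of 0.56 in the log2 ratio over all.

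The ratio of the replicate values lay far from its median at some weak peaks. The peak 74 bp upstream of an internal start of fray, a kinase gene, had 65.1 in replicate 2 and 12.1 in replicate 3, a log2 ratio of −2.43. The peak at Dph4 had 82.4 and 19.7, one of 2 peaks at Dh31-R, which encodes a neuropeptide receptor, had 84.5 and 21.9 (its replicate 2 region was also that of the gene's other peak), ATPsynC, subunit c of ATP synthase, had 67.5 and 18.7, and stv (starvin), a cochaperone gene, had 58.9 and 16.7. In the other direction, Pino had 15.9 in replicate 2 and 60.0 in replicate 3, CG13896 had 24.1 and 83.2, elgi, which encodes a ubiquitin ligase, had 17.9 and 61.3, Atx2, the fly ataxin-2, had 16.8 and 50.3, and lobo had 24.7 and 62.5. All 10 are extremes of 564, and their pooled signals were at most 105.5.

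Most of these summits stood some way back from the start. The median distance was 185.5 bp (quartiles 96 and 285.5), against 161 bp for non-passing candidates. Within 250 bp lay 389 (68.5%), close to the 67.5% of non-passing candidates. Within the 500 bp window, which the rule fixed, passing and non-passing candidates were spread differently. Of the passing peaks, 14.1% lay at 1 to 50 bp from the TSS against 19.1% of non-passing candidates, a difference of −5.05 percentage points (95% Newcombe interval −8.12 to −1.61). At 51 to 100 bp the shares were 11.8% and 15.8% (difference −4.02, −6.84 to −0.795). From 151 to 200 bp passing peaks were the more frequent at 13.4% against 9.77% (difference 3.61, 0.778 to 6.85), as they were from 201 to 250 bp at 13.7% against 9.93% (3.80, 0.937 to 7.07). Beyond 250 bp the interval of each difference included 0. All intervals given for shares cover counting error over peaks or start sites, not variation between embryos, and peaks are not replicates.

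Signal varied with distance in a partly different way. Median pooled signal was highest for summits at 151 to 200 bp (139.9), 201 to 250 bp (135.2) and 301 to 350 bp (133.7), and 105.8 at 1 to 50 bp. All 3 steps stood above the closest one in each replicate too, with medians of 76.6 and 63.8 at 151 to 200 bp, 70.8 and 65.2 at 201 to 250 bp, 66.7 and 67.8 at 301 to 350 bp, and 56.5 and 50.3 at 1 to 50 bp in replicates 2 and 3. Since signal helped choose the peaks, this is a description.

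**Figure D3:**
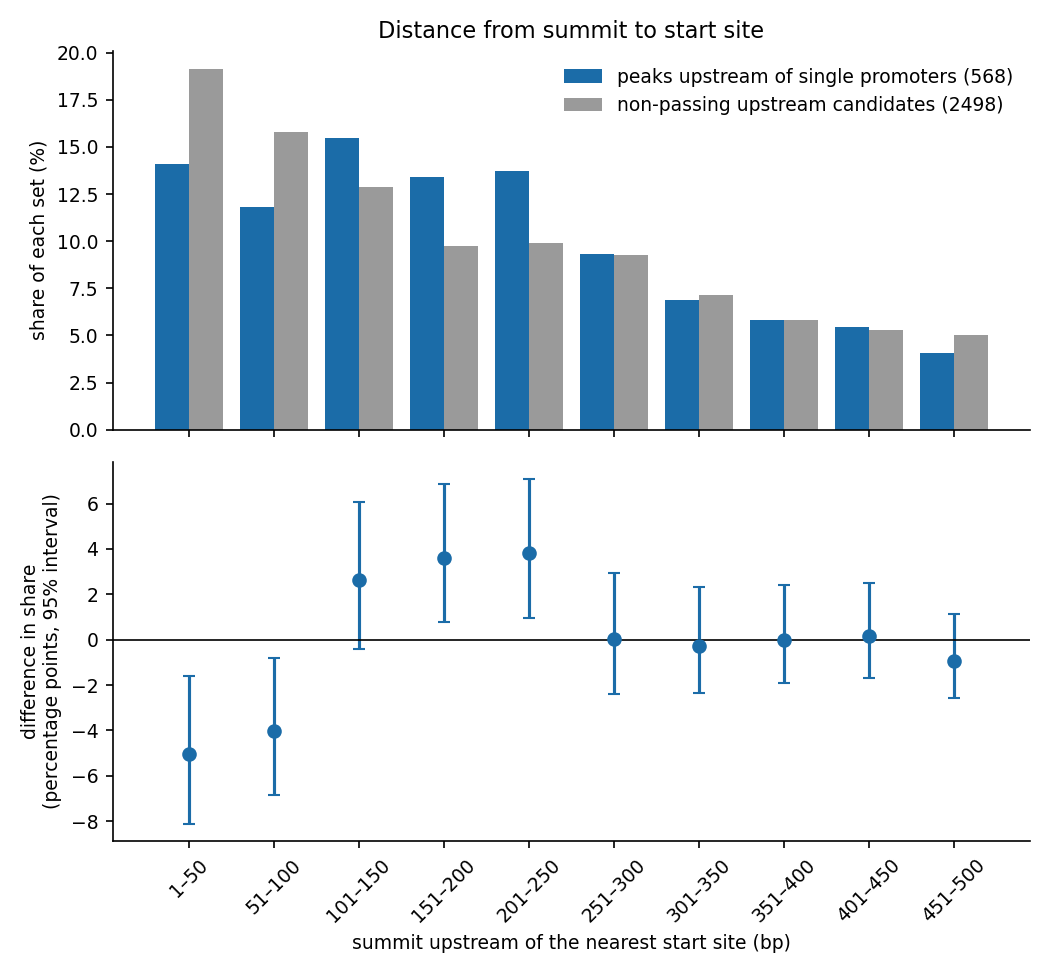
Upper panel, share of 568 passing and 2498 non-passing upstream candidates in each 50 bp step of distance from the TSS; lower panel, passing minus non-passing share in percentage points with the 95% Newcombe interval. Passing peaks are fewer from 1 to 100 bp and more frequent from 151 to 250 bp.

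At the edges of the rule, the last summits taken were 493, 491 and 489 bp upstream of Nup44A, lola and CG17896, with pooled signals of 89.4, 173 and 357. The first left out stood 501, 507 and 509 bp upstream of for, CG42336 and Samuel, with 76.7, 83.4 and 123. The closest divergent pairs that counted as single were those of Eno (1015 bp apart), CG9776 (1027 bp) and CG43736 (1033 bp), and the widest that did not were those of RpS7 (1000 bp), hts (999 bp) and Pax (977 bp). The weakest peaks taken were those of CG10565, CG12868 and CG31522, between 72.66 and 72.72, and the strongest upstream candidates that did not pass were at CG17075, NHP2 and MFS3, between 72.34 and 72.38.

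Many of the starts were internal ones. Of the 568 summits, 217 (38.2%, 34.3 to 42.3) lay inside the gene whose start they faced, upstream of a later start, against 32.2% of non-passing candidates (difference 6.02, 1.70 to 10.5). Another 217 (38.2%) lay between genes with the next gene in the same direction, against 37.4%. There were 87 (15.3%) with a divergent neighbour over 1000 bp away, against 17.2%. A further 47 (8.28%) lay inside another gene and outside the gene whose start they faced, against 13.1% (difference −4.86, −7.28 to −2.00). Summits inside both genes were counted as inside the gene whose start they faced. The 528 genes had a median length of 6594.5 bp, and the 2028 genes with only non-passing upstream candidates 4348 bp.

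By chromosome arm, the X held 110 of the peaks (19.4%) against 16.0% of non-passing candidates, with an interval of the difference that barely left out 0 (3.39, 0.00882 to 7.11). Arm 3L held 92 (16.2%) against 20.1% (−3.90, −7.13 to −0.304). The intervals for arms 2L, 2R and 3R, with 107, 121 and 134 peaks, included 0, as did that for chromosome 4 with 4 peaks.

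There were 34 genes with 2 or more summits, and Rtnl1 had the most with 4. Its strongest, 293 bp upstream of an internal start, had 249 in replicate 2 and 250.2 in replicate 3. Another internal start had summits at 172 bp (88.7 and 48.4) and 382 bp (48.4 and 27.6), and one more had a summit at 213 bp (103 and 85.6). Ptpmeg2, a protein tyrosine phosphatase gene, had 1 summit at each of 3 starts, at 187, 192 and 205 bp. They gave 103, 132 and 103 in replicate 2 and 128.5, 110.1 and 147 in replicate 3, so the 3 starts were alike in distance and signal.

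The gene dnc (dunce), which encodes a cAMP phosphodiesterase, also had a summit at each of 3 starts, at 272, 336 and 369 bp, with pooled signals of 326.5, 83.0 and 247. Its values were 163.5, 48.1 and 138 in replicate 2 and 162, 40.5 and 107.5 in replicate 3, so the same start was the weakest in both. Both starts of gro with a peak (groucho), the corepressor, had summits at 143 bp (163 and 185 in replicates 2 and 3) and 34 bp (72.5 and 59.4). The EGF receptor ligand gene spi (spitz) had 3 summits, the strongest at 174 bp with 136 and 138.

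Some of the multiple summits were neighbours within 1 region. There were 19 pairs of overlapping peaks, each pair at 1 gene, with summits 199 to 262 bp apart (median 202 bp), and 18 of the 19 pairs were 190 to 230 bp apart. Most peaks, 472 of 568, were given a width of 400 bp by the authors' processing. Counting overlapping peaks once left 549.

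The clearest difference within the set followed the distance of the summit. The peaks were divided into 147 near ones (1 to 100 bp), 242 middle ones (101 to 250 bp) and 179 far ones (251 to 500 bp), with limits chosen after the values had been seen. The sequence counted here was that of the start site, not of the summit, with each TSS counted once. DRE (TATCGATA, either strand, from 150 bases before to 50 after the TSS) was found at 17 of 145 near start sites (11.7%), 7 of 236 middle ones (2.97%) and 2 of 167 far ones (1.20%). Near exceeded far by 10.5 percentage points (5.27 to 16.8). Ohler motif 7 (CATCNCTA, either strand) was found at 8.28%, 1.70% and 1.20% (near minus far 7.08, 2.44 to 12.8). Of the other 13757 single start sites in the genome, 5.18% held a DRE and 3.31% Ohler motif 7.

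Other elements ran the other way. The GAGA repeat (GAGAGAG, either strand, so that longer runs hold overlapping copies) was found at 5.52% of near, 17.4% of middle and 24.0% of far start sites, near minus far −18.4 (−26.0 to −10.8). The Initiator (TCAGTT with T also allowed in place of the G and C in place of the last T, gene strand, first base 6 before to 4 after the start) was found at 8.97%, 18.2% and 24.0% (−15.0, −22.9 to −6.78). The DPE (A or G, then G, A or T, C or T, and A, C or G, first base 27 to 29) was found at 4.14%, 10.6% and 15.6% (−11.4, −18.1 to −4.85). At other single start sites the shares were 6.40%, 12.8% and 8.28%. The Wilson interval of the GAGA share at far start sites (18.1 to 31.0) lay above the share at other single start sites.

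For the TATA box (TATAAA or TATATA, first base 36 to 24 before the start) the shares were 2.07%, 3.81% and 4.19%, and for the E-box CAGCTG, a palindrome, they were 21.4%, 18.6% and 16.2%. Both intervals of near minus far included 0, but by replicate 3 summits that of the TATA box (−4.70, −9.30 to −0.558) did not. Ohler motif 1 (GGTCACAC, bound by M1BP, either strand) was found at 8.97%, 4.24% and 3.59%, and near minus far was 5.37 with an interval that reached just below 0 (−0.0601 to 11.5). It was 9.38 (3.61 to 16.1) by replicate 2 summits, 5.56 (0.551 to 11.5) by replicate 3 summits and 11.7 (5.58 to 18.5) for the peaks of replicate 2 alone, so the call for this motif depends on the setting.

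Non-passing candidates shared the trend for DRE but not for the GAGA repeat. Around their start sites DRE was found at 10.6% of near and 3.50% of far ones (difference 7.10, 4.62 to 9.61). The GAGA repeat was found at 9.52% of near and 9.96% of far ones (−0.436, −3.41 to 2.49), the DPE at 9.17% and 8.35%, and the Initiator at 12.3% and 16.3% (−4.02, −7.51 to −0.578). The near-minus-far difference of passing peaks was below that of non-passing candidates by 18.0 percentage points for the GAGA repeat (95% interval of the difference of differences −26.1 to −9.76), by 12.2 for the DPE (−19.5 to −5.09) and by 11.0 for the Initiator (−19.6 to −2.04). For DRE (3.43, −2.40 to 10.2) and Ohler motif 7 (3.51, −1.60 to 9.59) the interval included 0. Far passing peaks exceeded far non-passing candidates by 14.0 points for the GAGA repeat (7.69 to 21.3), 7.67 for the Initiator (1.18 to 15.1) and 7.22 for the DPE (2.02 to 13.7).

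With the peaks divided at their median distance the near-minus-far differences were smaller, at 5.63 for DRE (2.12 to 9.48), 3.51 for Ohler motif 7 (0.474 to 6.85) and −6.66 for the DPE (−11.9 to −1.54), with the same signs. The same peaks were also grouped by each replicate's own summits, and the signs stayed the same. The start sites and their sequences did not change, only the grouping could, so this is not separate support. Near minus far was 11.2 and 11.1 for DRE, −18.0 and −21.7 for the GAGA repeat, −15.1 and −12.0 for the Initiator and −8.77 and −10.6 for the DPE by the summits of replicates 2 and 3. Gene length and setting moved with distance too. The median gene length was 4323 bp in the near, 7656 bp in the middle and 12160 bp in the far group, and the share of summits inside the same gene was 32.7%, 36.0% and 45.8%. Summits with a tandem neighbour made up 49.7%, 40.9% and 25.1%. Their part in the element shares was not tested, except that at outermost start sites alone the near-minus-far difference was 12.95 for DRE, −13.5 for the GAGA repeat, −14.9 for the Initiator and −14.6 for the DPE, each with an interval that left out 0. Median pooled signal was 111 near, 125.5 middle and 119 far.

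**Figure D4:**
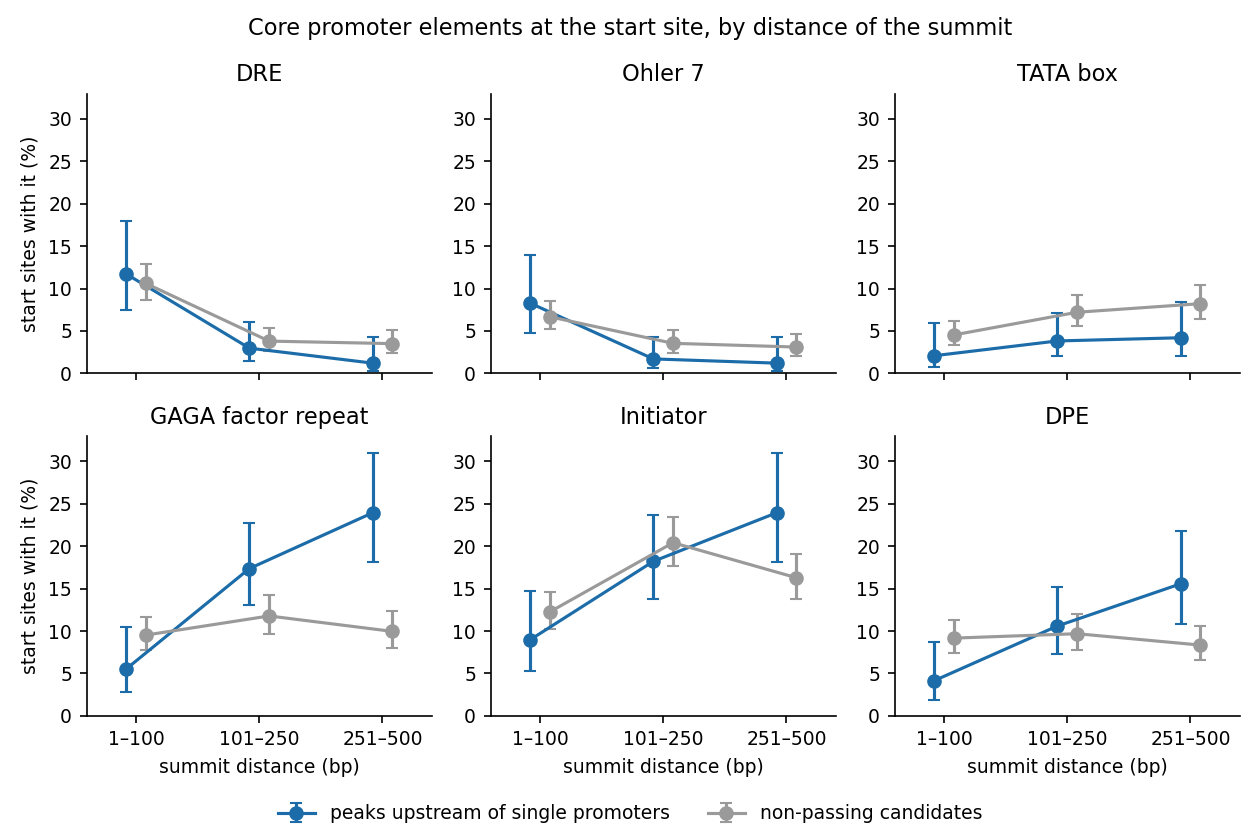
Share of start sites that hold each element (vertical axis, percent) by distance of the summit in 3 groups, for passing peaks and non-passing candidates, with 95% Wilson intervals. The GAGA factor repeat climbs from 5.52% to 24.0% in passing peaks and lies between 9.52% and 11.8% in non-passing candidates, while DRE declines in both.

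Over all 548 start sites with a passing peak, a TATA box was found at 3.47%, fewer than the 8.80% of other single start sites (difference −5.33, −6.66 to −3.39) and the 6.56% at non-passing candidates (−3.09, −4.73 to −0.992). The Initiator was found at 17.5% against 12.8% of other single start sites (4.77, 1.76 to 8.22) and 16.2% at non-passing candidates, where the interval included 0. That excess over other start sites was 2.34 (−0.847 to 6.21) with 1 TSS per gene. The DPE was found at 10.4%, and its intervals to both sets included 0. The TCT initiator of ribosomal protein genes was found at 5 of the 548 (0.912%) and at 0.712% of other start sites.

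At the summits themselves motif shares differed little between passing and non-passing candidates. In windows of 201 bp centred on the summit, 18 consensus motifs were searched on both strands, and for none did the interval of the difference to non-passing candidates leave out 0. DRE was found in 4.40% of passing and 4.88% of non-passing windows, the GAGA repeat in 8.10% and 9.61%, and CAGCTG in 10.2% and 12.3%. Shorter windows or stronger peaks moved some intervals off 0. Within 50 bp of the summit the difference was 1.11 for the CTCF core (0.0953 to 2.69), −2.53 for the GAGA repeat (−4.01 to −0.597) and 4.05 for TATAAA (0.883 to 7.58). For peaks above the median signal it was 5.96 for TATAAA (1.00 to 11.3), 2.21 for the Pho motif (0.0841 to 5.24), −3.79 for CAGCTG (−6.64 to −0.130) and −2.20 for Ohler motif 1 (−3.47 to −0.0616). With non-passing candidates reweighted to the GC content of the peaks, TATAAA went from 3.28 to −2.55 and the GAGA repeat from −1.51 to 1.79, with intervals that included 0. The largest ratio among motifs in at least 10 peaks was that of the CTCF core (AGNTGGCGC), at 2.64% against 1.48%, and its interval reached just below 0 (difference 1.16, −0.0133 to 2.88). Its 15 hits lay a median of 24 bp from the summit, and 12 of the 15 lay within 50 bp. In 14305 windows centred 186 bp upstream of all single promoters, a fixed distance near the median of the peaks, the core was found in 0.727% (difference 1.91, 0.869 to 3.59). Its share was 3.84% in peaks outside promoters. DRE (difference 2.67, 1.25 to 4.69), Ohler motif 7 (2.497, 1.14 to 4.46) and Ohler motif 1 (1.66, 0.613 to 3.34) were likewise more frequent in these peaks than in those fixed windows. The summits of the peaks lay 1 to 493 bp from the TSS, so position was not matched. Hits of DRE and Ohler motif 1 in the peaks lay a median of 53.5 and 52.5 bp upstream of the TSS, and those of Ohler motif 7 at 112.5 bp. The part of position in these differences was not tested.

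Motif shares at the summit did differ between these peaks and those at divergent promoters. Non-passing candidates at divergent promoters were not counted, so whether the differences belong to the kind of promoter and not to the peaks was not tested. DRE was found in 4.40% against 10.9% of 457 divergent-promoter peaks (difference −6.54, −10.0 to −3.30) and Ohler motif 7 in 4.05% against 10.9% (−6.89, −10.4 to −3.69). The GAGA repeat was found in 8.10% against 1.09% (7.00, 4.56 to 9.62). Within 50 bp of the summit these 3 differences were −4.01, −4.01 and 2.77, each with an interval that left out 0. CAGCTG was found in 10.2% against 15.3% (−5.11, −9.33 to −1.02). On a list of the peaks above the median signal and within 50 bp of the summit, the interval of the CAGCTG difference included 0 (−3.84 and −2.16). The E-box CACGTG, bound by Myc and Max, was found in 1.76% against 3.94% (−2.18, −4.52 to −0.140) and TATAAA in 27.8% against 37.2% (−9.38, −15.1 to −3.62), and both intervals likewise included 0 in those alternatives. For CACGTG the same held with replicate 2 alone (−1.48). To peaks just downstream of a TSS, the differences of DRE (−1.91, −6.53 to 1.43), Ohler motif 7 (−0.69, −4.92 to 2.27) and the GAGA repeat (3.36, −1.12 to 6.74) had intervals that included 0. So did that of the GAGA repeat to the windows at all single promoters (1.47, −0.545 to 4.04), where its share was 6.63%. Peaks just downstream of a TSS held Ohler motif 1 more often, at 7.37% against 2.64% (−4.73, −9.46 to −1.36). They also held a CA repeat (CACACACA) more often, at 11.1% against 3.35% (−7.71, −13.1 to −3.58). Median GC content of the window was 37.3% in these peaks, 40.8% in non-passing candidates, 35.8% at divergent promoters and 43.0% just downstream of a TSS.

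**Figure D5:**
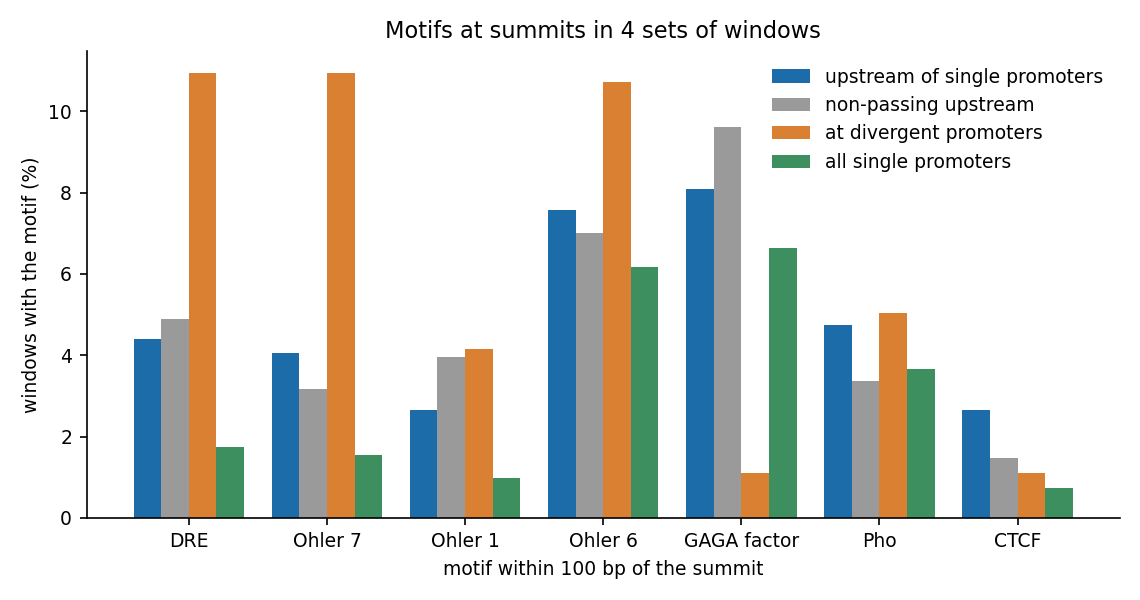
Share of 201 bp windows (vertical axis, percent) that hold each of 7 motifs. The sets are passing peaks upstream of single promoters, non-passing upstream candidates, peaks at divergent promoters and all single promoters. Windows of the last set are centred 186 bp upstream of the start. DRE and Ohler 7 are highest at divergent promoters (10.9% each), where the GAGA factor repeat is lowest (1.09%).

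Genes of the translation machinery and of early development were both among the 528. Of all 568 summits, 147 lay within 100 bp of the TSS, and the median distance was 185.5 bp. These are the background for the distances in each list. Of the 93 genes of cytoplasmic ribosomal proteins, 22 had an upstream candidate and 14 of these a passing peak (63.6%, 43.0 to 80.3), beside 20.7% of all genes with a candidate. The other ribosomal protein genes mostly had no upstream candidate, and 57 of the 93 had a passing peak at a promoter of any kind. Of all 13968 protein-coding genes, 1147 had a passing peak at a promoter of any kind. The lists were chosen with earlier results in view and the rule used the peaks, so the counts are a description. The 14 summits lay 11 to 271 bp from the TSS (median 30 bp), 13 of them within 100 bp.

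The strongest ribosomal peak was at RpL23A, of the large subunit, with 131 in replicate 2 and 152 in replicate 3, 90 bp from the TSS. RpS10b had 122 and 129.6 at 31 bp, RpL11 had 101 and 95.1 at 80 bp, and RpL22 had 88.2 and 105 at 51 bp. All 4 ranked within the strongest 500 candidates of each replicate. Translation factors had 5 genes with a passing peak of 17 with a candidate (29.4%, 13.3 to 53.1). After eIF6 (225 and 289), these were led by eEF1gamma (151 and 182), eEF2 (81.9 and 82.6), which moves the ribosome along the message, and eEF1alpha1 (69.9 and 71.7), which brings aminoacyl-tRNA to it. Of these 5 summits, 4 lay within 100 bp.

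Of 31 developmental transcription factor genes with a candidate, 9 had a passing peak (29.03%, 16.1 to 46.6). The intervals of this list and of the translation factors included the 20.7% of all genes with a candidate. The 9 summits lay 45 to 391 bp away (median 227 bp), 1 of them within 100 bp. The strongest in the list was elav at 248 bp, which encodes a neuronal RNA-binding protein and not a transcription factor, with 112 in replicate 2 and 93.6 in replicate 3. It was followed by bowl, a zinc-finger gene of the odd-skipped family (127 and 73.9 at 240 bp), fkh (forkhead), which acts in gut and salivary gland (111 and 76.2 at 227 bp), and disco-r itself (86.4 and 48.4 at 165 bp). The paralog disco also had a peak, 391 bp upstream, at 63.8 and 68.8. Both loci that the labels name were thus among these peaks, with pooled signals of 139 and 134.5. Other genes of the list with a peak were ush, a cofactor of GATA factors, oc, the head homeobox gene, Hnf4, a nuclear receptor, and bcd, the anterior morphogen, at pooled signals of 91.9 to 109.9.

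Signalling genes had 5 of 21 (23.8%). The strongest were sgg, the fly GSK3 kinase, at 137 in replicate 2 and 151 in replicate 3 (206 bp), and spi, with Wnt6 (35.0 and 64.7), a Wnt ligand, and aos (36.4 and 45.1), a secreted inhibitor of the EGF receptor pathway, further down. Mediator and general transcription factors had 4 of 9, namely Polr2F, a subunit shared by the RNA polymerases (61.0 and 73.4), Taf4, of TFIID (69.5 and 73.4), MED4 (63.6 and 69.2) and TfIIA-S (48.6 and 67.4). Polycomb and Trithorax genes had 3 of 12. Besides ph-p they were Psc, another PRC1 subunit (49.2 and 43.4), and kis, a chromatin remodeller (45.6 and 35.1), both far weaker than ph-p.

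The remaining lists held few. Chaperones had 2 of 7, the small heat shock genes Hsp27 (101 and 99.4 at 138 bp) and Hsp26 (98.7 and 79.3 at 88 bp). Cell cycle genes had 3 of 11, Dp, the partner of E2F, fzr, an activator of the anaphase-promoting complex, and CycG. Insulator proteins had 1 of 4, BEAF-32 (64.8 and 37.2 at 29 bp), which binds within the DRE. The ecdysone response had 1 of 6, the nuclear receptor gene Eip75B (106 and 73.1 at 5 bp), mitochondrial ribosomal proteins 1 of 4 (tko), the respiratory chain and ATP synthase 1 of 13 (ATPsynC), and odorant binding proteins 1 of 3 (Obp99b). None of 10 proteasome genes with a candidate had a passing peak, where a count of 0 leaves a Wilson interval up to 27.75%, and none of 6 aminoacyl-tRNA synthetase, 2 splicing factor, 10 chemoreceptor or 8 cuticle protein genes had one. In lists built from 1 replicate alone, 2 and 1 proteasome genes had a peak in replicates 2 and 3, 1 aminoacyl-tRNA synthetase gene had one in replicate 3, and no gene of the respiratory chain and ATP synthase had one in either.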

How the data were processed

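Whole embryos of 1 transgenic line were profiled in 2 replicates. The authors called candidate regions per replicate and on both pooled, and thresholded the pooled list by IDR, per the file headers and notes. Not given in the sources used here are the aligner, peak caller, IDR threshold and depth. Each deposited region carries a signal value with no stated scale, used to rank and describe regions within 1 list. The replicate lists, each on its own scale, were compared by ranks, Spearman's rho and the log2 ratio of their values. The summit offset, another deposited column (unit: other), gave summits. Coordinates are dm6. Start sites came from Ensembl release 115 (BDGP6.54), and bases were read from the Release 6 genome, the assembly named dm6.

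From these were computed position classes, shares with 95% Wilson intervals and differences with 95% Newcombe intervals, which were combined for a difference of differences. There was 1 group, hence no test between conditions, and no p-value is given. A replicate region matched a peak when it covered at least 50% of it. Consensus motifs (18) were searched within 100 bp of summits, and core elements at fixed positions, on each TSS once. Scripts used Python 3.11.15, NumPy 2.4.6, pandas 2.3.3, SciPy 1.17.1 and matplotlib 3.10.9, and were tested on simulated data. Alternatives were each replicate alone, a stricter list, other windows, pair distances, start sites, overlaps and motif distances, and GC reweighting; the distance groups and their alternatives were chosen after seeing the data.

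Named are genes at the 20 strongest peaks, genes with several summits (up to 10), up to 4 per list, the edges of the rule, the 5 highest and 5 lowest replicate ratios, and 10 6-mers by ratio; bcd, disco, gro, Hnf4, oc and ush and the genes whose sequence is shown were named after their values were seen. The members and the 18 gene lists were chosen with earlier results of these data known.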

Additional observations from a re-analysis of the deposited data

How the results depend on the processing

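The count of 568 peaks was 554 and 587 with replicate 2 or replicate 3 alone, 341 on a list above the median signal and 311 with a 200 bp window. It was 681 with a 1000 bp window, 663 when only divergent pairs at most 500 bp apart were dropped, and 395 with 1 TSS per gene. The IDR cut-off compares replicates and cannot be applied to 1 alone. The counts with 1 replicate alone therefore depend on the cut-off used in its place. The count of 528 genes was 505 and 547 with 1 replicate alone, of which 426 and 451 were shared, and 325 on the stricter list. The median distance of 185.5 bp was 177 to 181 bp with 1 replicate alone, 193 bp on the stricter list and 165 bp with 1 TSS per gene. The median signal of 117 was 62.7 and 55.4 in replicates 2 and 3, whose scales are their own. The Initiator excess over other single start sites was 2.34 with 1 TSS per gene and its interval then included 0. Against divergent promoters, the CAGCTG difference was −3.84 on the stricter list and −2.16 within 50 bp, CACGTG (−2.18) was −2.58 to −1.48 with 1 replicate alone, −0.946 on the stricter list and −0.214 within 50 bp, and TATAAA (−9.38) was −7.36 and −2.57; these intervals included 0, save that for −2.58. The cause of these shifts was not tested. Near-minus-far differences of DRE, Ohler motif 7, the GAGA repeat, the Initiator and the DPE kept their sign, with intervals leaving out 0, under all alternatives run for them, at the median split with smaller values (GAGA repeat −14.95, Initiator −10.3), as did the differences of DRE, Ohler motif 7 and the GAGA repeat to divergent promoters. No paired analysis was possible because there is 1 group only. Depth is unknown, so no statement on missed peaks can be made.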

Other observations

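Short words were also counted without a consensus in mind. Among 1414 6-mers found in at least 5% of the 201 bp summit windows, the 10 with the highest ratio of passing to non-passing share were named, so their differences were selected as high and are a description. The most frequent of the 10 was ACAGTG (either strand), found in 21.0% of the 568 peaks. It was found in 12.8% of non-passing upstream candidates (difference 8.14 percentage points, 4.71 to 11.9). In windows centred 186 bp upstream of all single promoters it was found in 8.38%. The share was 17.5% at divergent promoters, 16.8% just downstream of start sites and 22.1% in peaks outside promoters.

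ACAGTG stood higher in lists built from either replicate alone, at 17.7% against 12.3% in replicate 2 (difference 5.38, 2.15 to 8.99) and 20.8% against 12.1% in replicate 3 (8.66, 5.25 to 12.4). Both replicates went into the pooled peaks from which the word was picked, so these values are a description too. With non-passing candidates reweighted to the GC content of the peaks the difference was 7.07 (3.57 to 10.9). Within 50 bp of the summit it was 1.09 (−1.15 to 3.80). Of the others, ATACCC was found in 13.7% against 8.17% (5.57, 2.74 to 8.80), CTTAAC in 11.8% against 6.77% (5.03, 2.41 to 8.09), AATAGG in 10.4% against 6.17%, AGGGTA in 9.86% against 6.01%, TCCTAA in 8.10% against 4.08%, GTTAGA in 7.92% against 4.80%, CTACTC in 6.34% against 3.88%, GAGGTA in 5.28% against 2.64% and ACTAGT in 5.11% against 2.76%. ATACCC and AGGGTA overlap in letters when read on opposite strands.

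Examples of ACAGTG at strong peaks, with 25 bases of genome on each side, are shown with the word in capitals. They lie at chr3R:28326493-28326548 (larp, plus strand), chr2L:4997721-4997776 (Rtnl1, minus strand) and chrX:13131391-13131446 (MFS10, minus strand), and were 79.5, 74.5 and 62.5 bp from the summit.
larp: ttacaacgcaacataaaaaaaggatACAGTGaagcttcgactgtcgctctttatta
Rtnl1: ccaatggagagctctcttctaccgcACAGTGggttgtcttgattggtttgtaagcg
MFS10: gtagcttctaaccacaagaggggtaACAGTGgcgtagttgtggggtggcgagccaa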
